A study of Mus musculus with 12 samples.

Results

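Globin and red cell transcripts were followed in the ventricles of humanized phospholamban mice. The set held 5 genes of the 33641 listed, all found by their symbols in each of the 12 samples: the alpha globins Hba-a1 and Hba-a2, the beta globins Hbb-bs and Hbb-bt, and Alas2. The 12 samples formed 4 groups of 3, LV WT, LV R14del, RV WT and RV R14del, from left (LV) and right (RV) ventricles of mice labelled C57BL/6J, 12 to 14 weeks old, with wild-type (WT-PLN) or R14del-PLN phospholamban. Both genotypes carried a human PLN coding sequence knocked into exon 2 of the mouse gene, so the controls were themselves humanized, and they shared a founder background (129/Sv-CP and C57Bl/6J, crossed to Sox2-Cre). The methods describe the R14del-PLN mice as heterozygous, with a mutant and a WT human allele, and all mice as males; nothing says which samples came from 1 mouse, so p-values measure the spread between samples. PolyA-selected RNA of whole ventricle was sequenced, and the study asked which transcripts differ with the R14del mutation in each ventricle. Whether blood was washed out of the hearts before RNA extraction is not given in the sources used here.

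Haemoglobin carries oxygen in red cells as a tetramer of alpha and beta chains, each holding a haem. Mature mouse red cells have no nucleus, and the youngest of them, the reticulocytes, still carry globin mRNA for a time after they enter the circulation. Globin reads in a heart sample are therefore usually taken as a readout of the blood held in the tissue, although globin mRNA has also been described in other cells. Alas2 encodes the erythroid form of 5-aminolevulinate synthase, the first enzyme of haem synthesis, while its relative Alas1 serves other tissues. Alpha and beta chains are made in near balance in red cell precursors.

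The coding sequences of the copies are nearly the same. On GRCm38, Hba-a1 (chr11:32283511-32284465, plus strand) and Hba-a2 (chr11:32296489-32297298, plus strand) are 3-exon genes side by side, and their coding sequences of 429 bases differed at 1 base, written C381T with the Hba-a1 base first and positions counted from 1 at the first coding base. Hbb-bs (chr7:103826534-103828096, minus strand) and Hbb-bt (chr7:103812524-103813996, minus strand) are likewise 3-exon neighbours, and their coding sequences of 444 bases differed at C417T, with the Hbb-bs base first. The alpha and beta coding sequences shared 57.5% to 57.8% of aligned bases. Around the differing base, in capitals, the coding strands of the alpha pair (chr11:32284319-32284367 and chr11:32297136-32297184) and of the beta pair (chr7:103826668-103826716 and chr7:103812659-103812707) read 5′ to 3′:
Hba-a1: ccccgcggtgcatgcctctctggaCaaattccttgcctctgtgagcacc
Hba-a2: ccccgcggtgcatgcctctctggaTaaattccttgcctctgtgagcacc
Hbb-bs: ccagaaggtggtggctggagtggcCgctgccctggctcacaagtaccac
Hbb-bt: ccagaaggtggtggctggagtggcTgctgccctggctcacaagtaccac

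A read from most of the coding part matches both copies of a pair equally, and how the authors' program divided such reads is not stated. The untranslated parts were not compared. The split between Hba-a1 and Hba-a2, and between Hbb-bs and Hbb-bt, is uncertain for this reason, so values of single copies are given as deposited, and the sums of each pair are the safer readout. Alas2 (chrX:150547375-150570638, plus strand, 11 exons) has no such partner among the 5.

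Stretches of 110 bases just before the start of each gene are shown because the 5 transcripts were compared as one group. They are from RefSeq (GRCm38.p6), and capitals mark matches on either strand to the CACCC motif, to the CCAAT box and to ATATAA, and to the GATA site GATAA where it falls in the stretch. GENCODE starts all 5 genes further upstream, so some of these bases lie inside its gene models. The stretches span chr11:32283562-32283671, chr11:32296382-32296491, chr7:103827929-103828038 (minus strand), chr7:103813924-103814033 (minus strand) and chrX:150547307-150547416.
Hba-a1: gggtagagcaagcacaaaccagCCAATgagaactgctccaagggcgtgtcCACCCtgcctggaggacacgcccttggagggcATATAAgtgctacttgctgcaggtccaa
Hba-a2: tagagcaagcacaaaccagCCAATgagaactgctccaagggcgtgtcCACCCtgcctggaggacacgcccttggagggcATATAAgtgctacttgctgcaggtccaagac
Hbb-bs: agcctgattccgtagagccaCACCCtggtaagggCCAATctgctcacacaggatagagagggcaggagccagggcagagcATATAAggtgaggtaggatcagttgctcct
Hbb-bt: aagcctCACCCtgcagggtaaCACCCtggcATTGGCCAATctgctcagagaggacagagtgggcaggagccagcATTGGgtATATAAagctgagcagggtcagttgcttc
Alas2: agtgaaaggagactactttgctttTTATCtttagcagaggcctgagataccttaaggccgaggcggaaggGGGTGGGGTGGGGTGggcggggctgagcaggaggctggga

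All 4 globin promoters held the CACCC motif, the CCAAT box and ATATAA in these stretches, and had GATAA further upstream. In Hbb-bt, matches to the CCAAT box on opposite strands lie next to each other. The Alas2 stretch held CACCC and GATAA, both on the other strand, and neither of the other motifs. For the 32851 promoters in the table, only the bases before each start were searched, on both strands and over more bases than the stretches shown. CACCC was found in 52.0%, CCAAT in 33.8%, GATAA in 22.6% and ATATAA in 9.10%. The full windows run from upstream of each start to just past it. Those of Hba-a1 and Hba-a2, offset by 3 bases, shared an identical run of 297 bases. In the bases before the start alone, Hba-a1 and Hba-a2 matched at 97.6% of aligned bases and Hbb-bs and Hbb-bt at 69.3%. These matches are a description of the letters only.

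Several libraries stood apart before any comparison. In both samples of WT-PLN number 1, LV and then RV, the summed TPM of 4 Y-linked genes was 0.284 and 0.250, against 43.5 to 63.7 in the other 10 samples, although the mice are described as males. LV R14del-PLN number 3 had the lowest share of mitochondrially encoded transcripts, 37.3% of TPM against 44.0% to 54.5% elsewhere, and RV R14del-PLN number 3 came from another sequencing run than the other 11 samples. LV WT number 3 had the highest summed neutrophil (17.99 TPM), platelet (38.2) and atrial (1355) markers. The summed level of 9 atrial cardiomyocyte markers ran from 234 to 1355 TPM in LV WT, 168 to 341 in LV R14del, 111 to 919.5 in RV WT and 67.8 to 557 in RV R14del samples. TPM values (transcript abundance scaled for length and to a fixed total in each sample) keep no record of depth, so no counting error could be given.

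The globins were abundant and Alas2 was scarce. By mean TPM over all samples, Hbb-bs ranked 90 of the 33641 genes listed, Hba-a2 108, Hba-a1 226, Hbb-bt 566 and Alas2 6014. The 4 globins together made up 0.0953% to 0.231% of all TPM. The highest share was in an LV WT-PLN sample and the lowest in an RV R14del-PLN sample.

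Hba-a1, an alpha chain gene, was at 377, 409 and 359 TPM in LV WT and at 203, 233 and 320 TPM in LV R14del samples. In the RV it was at 317, 326 and 244 TPM in WT and at 173, 159 and 237 TPM in R14del samples. Every R14del value lay below every WT value of the same ventricle. The means were 382 ± 25.3, 252 ± 60.9, 296 ± 44.8 and 190 ± 41.6 TPM (SD, n = 3) in that order.

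Hba-a2, the neighbouring alpha copy, was at 741, 745 and 670 TPM in LV WT and at 365, 446 and 791 TPM in LV R14del samples. Its RV values were 544, 540 and 486 TPM in WT and 306, 691 and 418 TPM in R14del samples. In each ventricle 1 R14del sample, number 3 in the LV and number 2 in the RV, was above every WT sample, so the genotypes overlapped. The spread was correspondingly wide, with means of 719 ± 42.1 in LV WT, 534 ± 226 in LV R14del, 523 ± 32.5 in RV WT and 472 ± 198 TPM in RV R14del samples (SD, n = 3).

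Hbb-bs, the more abundant beta chain gene here, was at 1033, 970 and 919 TPM in LV WT and at 459, 621 and 891 TPM in LV R14del samples. In the RV it was at 746, 749 and 628 TPM in WT and at 424, 454 and 537 TPM in R14del samples. No R14del value reached the WT range of its ventricle, although LV R14del number 3 came close to it. Means were 974 ± 57.0, 657 ± 218, 707 ± 69.1 and 471 ± 58.5 TPM (SD, n = 3).

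Hbb-bt, the other beta copy, was at 157, 142 and 132 TPM in LV WT and at 62.7, 87.6 and 133 TPM in LV R14del samples. It was at 116, 114 and 95.5 TPM in RV WT and at 49.3, 58.4 and 76.6 TPM in RV R14del samples. The RV groups were separate, and the LV groups overlapped through LV R14del number 3 alone. Means were 144 ± 12.5, 94.5 ± 35.7, 109 ± 11.5 and 61.4 ± 13.9 TPM (SD, n = 3).

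Alas2 was at 8.38, 9.6 and 7.44 TPM in LV WT and at 3.51, 4.62 and 7.42 TPM in LV R14del samples. In the RV it was at 6.26, 6.38 and 7.41 TPM in WT and at 3.74, 5.99 and 5.12 TPM in R14del samples. The groups were just separate in both ventricles, with the highest R14del value next to the lowest WT value. Means were 8.47 ± 1.08, 5.18 ± 2.02, 6.68 ± 0.634 and 4.95 ± 1.14 TPM (SD, n = 3).

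**Figure D1:**
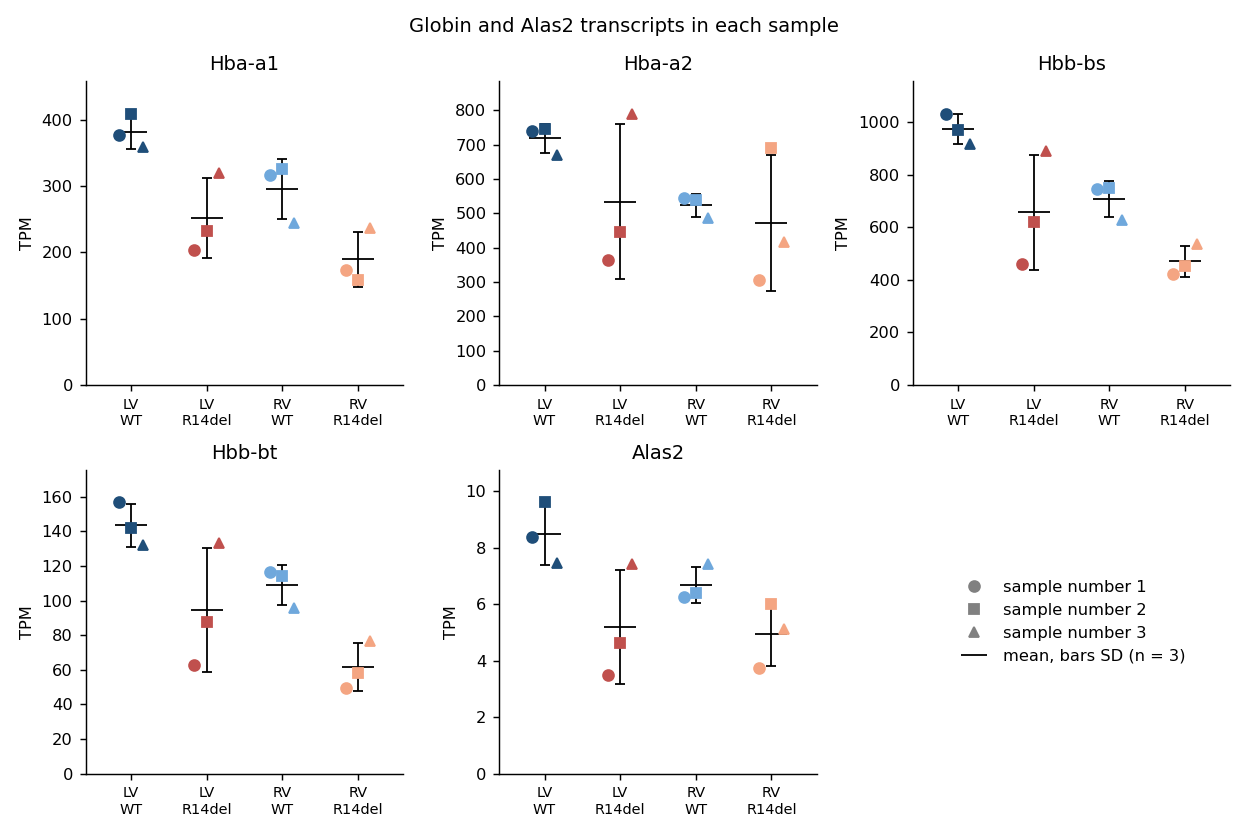
TPM (y axis, from 0) of Hba-a1, Hba-a2, Hbb-bs, Hbb-bt and Alas2 in each sample, by group (x axis). Symbols give the sample number, the horizontal line the mean and the bars the SD of 3 samples. WT values lie close together, Hbb-bs at 919 to 1033 TPM in the LV, and the R14del values spread further, 459 to 891 TPM.

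Ordered by mean, LV WT came first and RV R14del last for all 5 transcripts. The middle places went to RV WT and then LV R14del for 4 of them, and the order of these neighbours was the other way for Hba-a2 (523 against 534 TPM). The ranges of RV WT and LV R14del overlapped for every member, as did those of LV R14del and RV R14del. Spread within a group was 5.86% to 15.2% of the mean in the WT groups and 12.4% to 42.3% in the R14del groups.

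Between genotypes in the LV, all 5 transcripts were lower in R14del samples, and none passed the test. The mean in R14del samples was 66.0% of the WT mean for Hba-a1, 74.3% for Hba-a2, 67.5% for Hbb-bs, 65.8% for Hbb-bt and 61.2% for Alas2. In limma on log2(TPM + 1) the log2 fold changes (± SE) were -0.62 ± 0.19 for Hba-a1, -0.51 ± 0.28 for Hba-a2, -0.62 ± 0.19 for Hbb-bs, -0.66 ± 0.23 for Hbb-bt and -0.66 ± 0.21 for Alas2. The adjusted p in limma was 0.235, 0.612, 0.264, 0.318 and 0.269 in the same order. In bulk tissue, fewer cells of a type and less RNA per cell cannot be told apart, which holds for every difference given here.

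The members' counts stood as follows in the LV. A gene was called where the adjusted p did not exceed 0.05 and the fold change reached 1.5. By this rule limma called 0 of 5 members and 65 of the 12526 genes tested, or 0.519%. By unadjusted p under 0.05, 4 of 5 members were lower in R14del samples, against 7.85% of all genes tested. The ranges were separate and lower in R14del samples for 3 of 5 members, against 8.47% of all genes tested. The median log2 fold change was -0.62 over the members and -0.09 over all genes tested. With mitochondrially encoded genes left out, ranges were separate for 4 of 5 members, against 15.3% of all genes. The members were measured in the same libraries and scaled together, so they are not independent of each other.

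Single libraries moved this comparison in both directions. Without LV R14del number 3, limma called 1 member, Hbb-bs (log2 fold change -0.86, adjusted p = 0.0321), and the other 4 had adjusted p of 0.0523 to 0.170. Without LV R14del number 1, the log2 fold change of Hbb-bs was -0.39. Its adjusted p in limma ran from 0.0321 to 0.732 over the alternatives tried. LV R14del number 3 also had the low mitochondrial share given above. With mitochondrially encoded genes left out of the scaling, its total globin was 3404 TPM against 2233 and 2796 in the other LV R14del samples and 3717 to 4324 in LV WT samples, and the groups then did not overlap. The part of the mitochondrial share in the differences was not tested further.

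Between genotypes in the RV, all 5 transcripts again had lower means in R14del samples and none passed. The R14del mean was 64.1% of the WT mean for Hba-a1, 90.2% for Hba-a2, 66.6% for Hbb-bs, 56.5% for Hbb-bt and 74.1% for Alas2. The log2 fold changes were -0.65 ± 0.19, -0.23 ± 0.28, -0.59 ± 0.19, -0.83 ± 0.23 and -0.38 ± 0.21 (± SE), with adjusted p in limma of 0.294, 1, 0.470, 0.245 and 0.904. Hbb-bt differed most and Hba-a2 least. The value of Hba-a2 turned on RV R14del number 2: without that sample its log2 fold change was -0.55 (limma adjusted p = 0.954), and without RV R14del number 1 it was 0.04.

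In the RV, limma called 0 of 5 members and 34 of 12526 genes, or 0.271%. By unadjusted p under 0.05, 3 of 5 members were lower in R14del samples, against 3.4% of all genes tested. Ranges were separate and lower in R14del samples for 4 of 5 members, against 5.79% of all genes. With mitochondrially encoded genes left out, this held for 3 of 5, against 5.1% of all genes, since Hba-a1 then overlapped. The median log2 fold change was -0.59 over the members and -0.00 over all genes tested. Leaving out RV R14del number 3, the sample of the other sequencing run, gave log2 fold changes of -1.0 for Hbb-bt, -0.82 for Hba-a1 and -0.68 for Hbb-bs, with no member called. In that fit Hba-a2 was slightly less negative and Alas2 slightly more negative than with all samples.

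Without both WT-PLN samples of number 1, the genotype differences were close to those above and no member was called. In the LV the log2 fold changes were then between -0.66 (Alas2) and -0.48 (Hba-a2), with limma adjusted p of 0.232 to 0.563. In the RV they were between -0.78 (Hbb-bt) and -0.20 (Hba-a2), with limma adjusted p of 0.427 to 1. The number of genes called over the whole table rose to 231 in the LV and 88 in the RV in that fit.

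**Figure D2:**
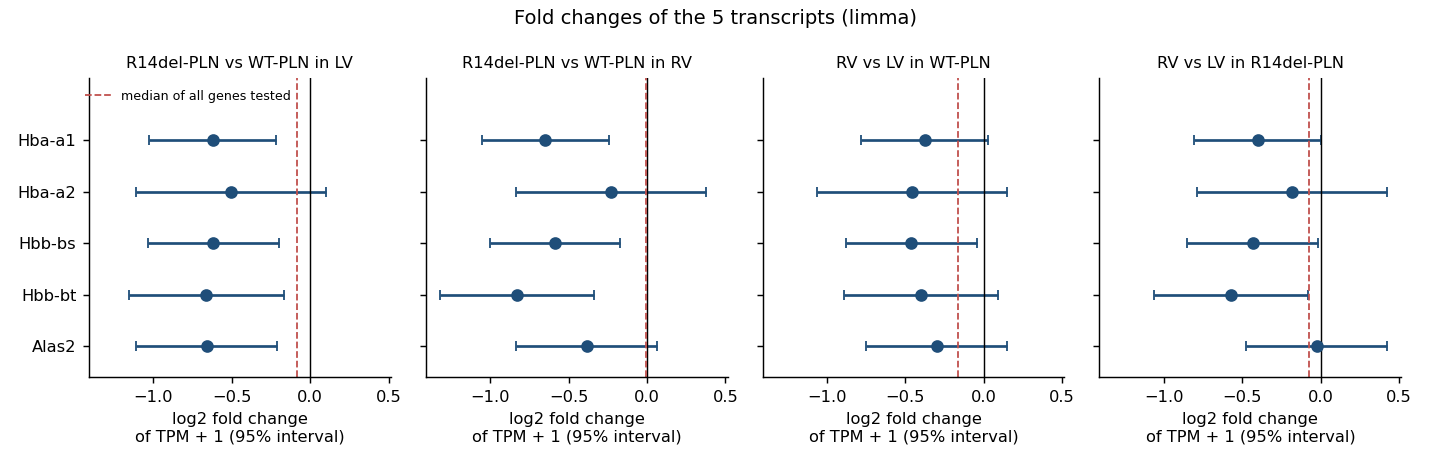
Log2 fold changes of TPM + 1 from limma (x axis) for the 5 transcripts (y axis) in the 4 comparisons, with 95% intervals. The dashed line is the median of all 12526 genes tested. All points lie below 0, from -0.83 for Hbb-bt between genotypes in the RV to -0.02 for Alas2 between ventricles of R14del-PLN mice, and no transcript passed the call rule.

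Between ventricles of WT-PLN mice, all 5 transcripts were lower in the RV in every sample, and none passed the test. The RV mean was 77.5% of the LV mean for Hba-a1, 72.8% for Hba-a2, 72.6% for Hbb-bs, 75.8% for Hbb-bt and 78.8% for Alas2. The log2 fold changes ran from -0.46 ± 0.19 (SE) for Hbb-bs to -0.30 ± 0.21 for Alas2, with adjusted p in limma of 0.311 to 0.476. Ranges were separate and lower in the RV for 5 of 5 members, but this was so for 25.2% of all genes tested. With mitochondrially encoded genes left out, ranges were separate for 2 of 5, Hba-a2 and Hbb-bs, against 12% of all genes. The median of all genes was itself at -0.17 (85.9% of them lower in the RV), and the members lay below it. Under quantile normalization, where that median was 0.01, their log2 fold changes were -0.24 to -0.12. In the WT samples the mitochondrial share was 48.7% to 52.7% in the RV and 44.0% to 47.3% in the LV.

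In that comparison limma called 0 genes of 12526 (0%), while 1811 had an unadjusted p under 0.05. WT-PLN samples of the ventricles paired by number, and with genotype and number as a block limma called 12 genes, none of them a member (adjusted p of 0.203 to 0.394). The same block as a random effect called 0 genes (2095 at an unadjusted p under 0.05), as did number alone as a fixed block (2155). Within numbers, the RV value was 72.4% to 73.4% of the LV value for Hba-a2 and 68.3% to 77.2% for Hbb-bs. For Alas2 it was 74.6%, 66.4% and 99.6% in numbers 1, 2 and 3.

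Between ventricles of R14del-PLN mice, the 5 means were again lower in the RV, with overlapping ranges for all of them. The RV mean was 75.3% of the LV mean for Hba-a1, 88.3% for Hba-a2, 71.8% for Hbb-bs, 65.0% for Hbb-bt and 95.5% for Alas2. Log2 fold changes were -0.40, -0.18, -0.43, -0.57 and -0.02, with adjusted p in limma of 0.737 to 1.00. Separate ranges, lower in the RV, were seen for 0 of 5 members and for 8.72% of all genes. Limma called 0 of 12526 genes (0%), and 823 had an unadjusted p under 0.05. By number, the RV sample was below the LV sample in 3 of 3 pairs for Hba-a1, Hbb-bs and Hbb-bt, in 2 of 3 for Hba-a2 and in 1 of 3 for Alas2. For Hba-a2 and Alas2 the direction also turned without LV R14del number 3, to 0.14 and 0.22.

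The genotype difference was also compared between the ventricles, as an interaction of genotype and ventricle. Limma called 0 of 12526 genes (0%), with 127 at an unadjusted p under 0.05, and the adjusted p was 1.00 for each of the 5 members. The interval of the interaction on the log2 scale was -0.60 to 0.55 for Hba-a1 and -0.56 to 0.62 for Hbb-bs. It was wider for the others, at -0.58 to 1.14 for Hba-a2, -0.87 to 0.52 for Hbb-bt and -0.36 to 0.91 for Alas2. The ventricles could differ by up to that much without being told apart here.

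Summed over each pair, the deposited TPM of the genotypes did not overlap in beta globin and overlapped in alpha globin. The beta sum (Hbb-bs and Hbb-bt) was 1189, 1112 and 1051 TPM in LV WT against 521, 709 and 1024 TPM in LV R14del samples. In the RV it was 862, 863 and 723 TPM in WT against 473, 512 and 613 TPM in R14del samples. All R14del sums lay below all WT sums of the same ventricle. The mean log2 difference was -0.63 in the LV and -0.62 in the RV (exact permutation test, two-sided, p = 0.1 in each, the smallest that 20 divisions of 3 against 3 allow, and 0.255 adjusted over 28 tests).

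The alpha sum (Hba-a1 and Hba-a2) was 1118, 1154 and 1029 TPM in LV WT against 568, 679 and 1111 TPM in LV R14del samples. In the RV it was 861, 866 and 730 TPM in WT against 480, 850 and 655 TPM in R14del samples. LV R14del number 3 and RV R14del number 2 fell inside the WT range. With mitochondrially encoded genes left out, the LV alpha sums no longer overlapped, the highest R14del value being 1772 TPM and the lowest WT value 1839 TPM. The mean log2 differences were -0.54 in the LV and -0.34 in the RV, with an exact permutation p = 0.2 in each (0.373 adjusted). Neither sum could have passed a threshold of 0.05 with 3 samples against 3.

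Total globin ran from 2080 to 2307 TPM in LV WT, 1090 to 2135 in LV R14del, 1453 to 1730 in RV WT and 953 to 1362 TPM in RV R14del samples. The R14del mean was 69.3% of the WT mean in the LV (exact permutation p = 0.2) and 73.0% in the RV (exact p = 0.1). Between ventricles, the RV mean was 73.7% of the LV mean in WT samples (exact p = 0.1) and 77.7% in R14del samples (exact p = 0.4). Only the LV groups overlapped among the genotype comparisons.

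**Figure D3:**
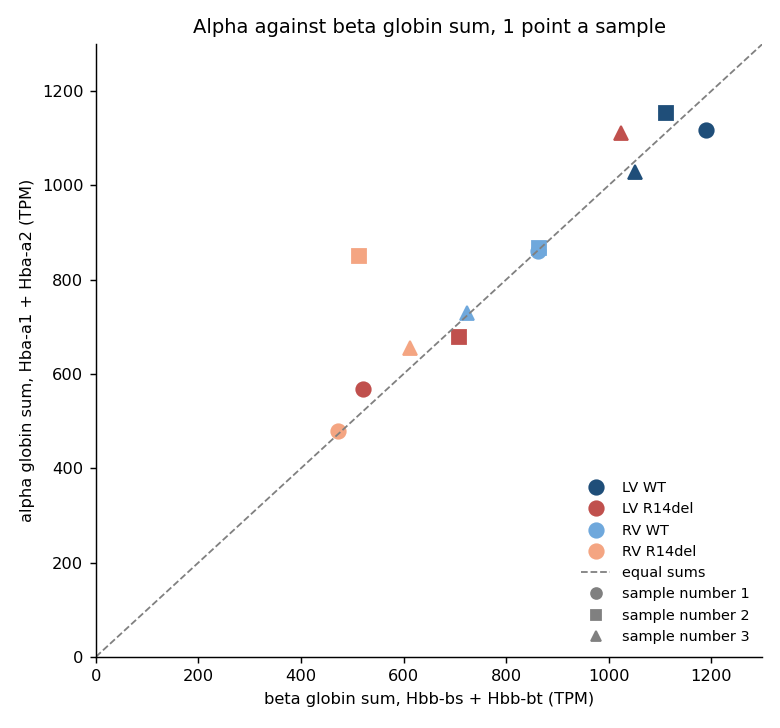
Alpha globin sum (y axis, TPM) against beta globin sum (x axis, TPM), 1 point a sample, coloured by group and shaped by sample number. The dashed line marks equal sums. Of the 12 samples, 11 lie close to it, with ratios of 0.940 to 1.09, and RV R14del number 2 lies above it at 1.66.

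The balance of the chains was tight in all but 1 sample. The ratio of alpha to beta globin TPM was 0.940, 1.04 and 0.980 in LV WT and 0.999, 1.00 and 1.01 in RV WT samples. It was 1.09, 0.957 and 1.09 in LV R14del and 1.01, 1.66 and 1.07 in RV R14del samples. RV R14del number 2 therefore had an excess of alpha over beta transcripts that no other sample showed. Its summed atrial markers were also high, at 557 TPM against 230.2 and 67.8 in the other RV R14del samples, and its Myh6, a myosin heavy chain of cardiomyocytes named after its values were seen, was at 8262 TPM against 3670 and 3391. The part of these in the ratio was not tested. Between genotypes the mean ratio differed by 0.24 in the RV (exact permutation p = 0.1) and by 0.06 in the LV (exact permutation p = 0.3).

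In the deposited values, the excess in that sample was assigned to Hba-a2. Hba-a2 made up 62.3% to 66.5% of alpha globin in the WT samples, and 64.3%, 65.7% and 71.2% in LV R14del samples. In RV R14del samples it was 63.8%, 81.4% and 63.8%, the high value again being number 2, while Hba-a1 was lowest there (159 TPM). Without number 2, the difference between genotypes in the RV was -0.20 percentage points, against 5.64 with it. The split between the copies carries the uncertainty of shared reads given above. Whether the high Hba-a2 share is in the RNA or in the division of reads was not tested. The excess of alpha over beta is in the sum of the pair, which that split enters only through the scaling for length.

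Hbb-bt made up a small and steady share of beta globin. The share was 13.2%, 12.8% and 12.6% in LV WT, 12.0%, 12.4% and 13.0% in LV R14del and 13.5%, 13.2% and 13.2% in RV WT samples. In RV R14del samples it was 10.4%, 11.4% and 12.5%, below every other RV sample. The mean difference between genotypes in the RV was -1.88 percentage points (exact permutation p = 0.1, 0.255 adjusted) and in the LV -0.37 (exact permutation p = 0.4).

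Alas2 was set against total globin as Alas2 TPM per 1000 globin TPM. The values were 3.63, 4.24 and 3.58 in LV WT and 3.22, 3.33 and 3.48 in LV R14del samples. In the RV they were 3.63, 3.69 and 5.10 in WT and 3.92, 4.40 and 4.04 in R14del samples. The LV groups were separate and the RV groups overlapped, with differences between genotypes of -0.47 (exact permutation p = 0.1) and -0.02 (exact permutation p = 1). The ratio of Alas2 to globin lay within 3.22 to 5.10, while total globin ran from 953 to 2307 TPM. Between ventricles of R14del-PLN mice it was higher in the RV by 0.78 with separate ranges (exact permutation p = 0.1, 0.255 adjusted), and in WT-PLN mice by 0.32 (exact permutation p = 0.6).

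**Figure D4:**
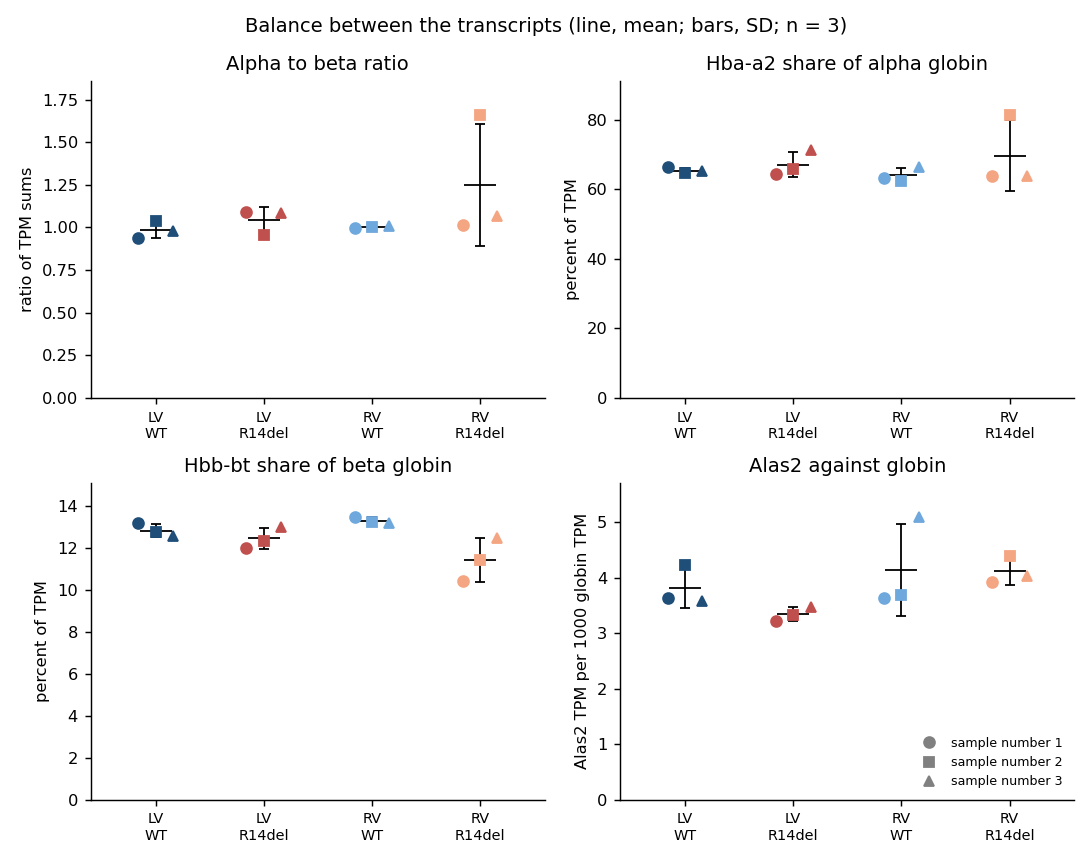
Alpha to beta ratio, Hba-a2 share of alpha globin (percent), Hbb-bt share of beta globin (percent) and Alas2 TPM per 1000 globin TPM in each sample, by group; lines are means and bars SD of 3 samples, and all y axes start at 0. RV R14del number 2 stands out in the upper panels, with a ratio of 1.66 and an Hba-a2 share of 81.4%.

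The members were compared across samples with the group means removed, as a description over 12 samples that share their scaling. Hbb-bs and Hbb-bt followed each other most closely (Pearson r = 0.98), and Hba-a1 followed both (0.87 and 0.87). Hba-a2 followed Alas2 (0.88) more than it followed Hba-a1 (0.37). Against total globin, r was 0.92 for Hbb-bs, 0.92 for Hbb-bt, 0.91 for Hba-a2, 0.88 for Alas2 and 0.70 for Hba-a1, with Spearman's rho of 0.84, 0.83, 0.87, 0.73 and 0.72. Each globin is itself part of that total, so its r is partly built in, whereas Alas2 is not part of it. Without LV R14del number 1 and number 3, the samples farthest from the median, r fell to between 0.40 (Hba-a1) and 0.86 (Hba-a2).

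The 10 other genes with the highest r to total globin were Gm4070 (0.97), Smco1 (0.96), Slc35a3 (0.95), Ctrc (0.93), Wnt5b (0.93), Ttyh2 (0.93), Zfp709 (0.93), Atp6v0e2 (0.93), Snrnp27 (0.93) and Yipf7 (0.93). Their Spearman's rho ran from 0.81 to 0.96, and r without LV R14del number 1 and number 3 from 0.76 to 0.93. None of the 10 is in the lists of red cell genes used here, and Bpgm, the bisphosphoglycerate mutase of red cells, named after its values were seen, had r = 0.90. With group means kept, 0 of the 10 stayed among the nearest 10. Myoglobin (Mb), the oxygen-binding globin of heart muscle, had r = 0.89.

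Apart from the 4 adult globins, haemoglobin-type genes were at or near 0. Of 9 other haemoglobin-type rows, the embryonic Hba-x, Hbb-bh0, Hbb-bh1 and Hbb-bh2 and the row Hbb-bh3 were listed at 0 in all 12 samples. The embryonic Hbb-y was above 0 in 1 sample, and Hba-ps4, Hbq1a and Hbq1b did not exceed 0.278 TPM in any. Mb was at 7852 to 11921 TPM, far above the haemoglobin genes, and its R14del mean was 97.4% of the WT mean in the LV and 96.6% in the RV. Total globin per Mb, a ratio chosen after the data were seen, was 0.202 to 0.226 in LV WT, 0.123 to 0.179 in LV R14del, 0.182 to 0.200 in RV WT and 0.120 to 0.161 in RV R14del samples, so that the genotypes were separate in both ventricles (exact permutation p = 0.1 in each).

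Other erythroid genes were barely above 0. A group of 14 genes of erythroid precursors or of the red cell membrane, chosen after their values were seen, summed to 0.485 to 1.21 TPM in LV WT, 0.180 to 0.538 in LV R14del, 0.453 to 0.552 in RV WT and 0.176 to 0.779 TPM in RV R14del samples. Slc4a1, the band 3 anion exchanger, did not exceed 0.294 TPM. The erythroid transcription factor genes Gata1 and Klf1 were at most 0.120 and 0.104 TPM, and Car1, a red cell carbonic anhydrase, was listed at 0 in every sample. These levels were under those of Alas2 in every sample.

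Genes of haem synthesis showed no call. Of 14 listed, all were tested and 0 were called in either genotype comparison, with median log2 fold changes of -0.03 in the LV and 0.01 in the RV, beside -0.09 and -0.00 for all genes tested. Alas1, the general form of the Alas2 enzyme, had the opposite sign to Alas2: 0.72 ± 0.24 (SE) in the LV (limma adjusted p = 0.294) and 0.82 ± 0.24 in the RV (limma adjusted p = 0.302). It was at 71.9 to 124 TPM in LV WT and at 130 to 209 TPM in LV R14del samples, and at 69.0 to 105 against 138 to 198 TPM in the RV, so the groups were separate. The share of all genes with separate ranges, higher in R14del samples, was not counted. Tmem14c, Alad and Fech, which import, make or complete intermediates of haem, had log2 fold changes between -0.03 and 0.04.

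Of 14 genes of haem breakdown and iron, 13 were tested and 0 were called, with medians of -0.08 in the LV and 0.01 in the RV. The ferritin genes were the most abundant: Fth1 had -0.16 in the LV and -0.10 in the RV, and Ftl1 -0.48 and -0.38. Hmox2, the constitutive haem oxygenase, had -0.06 and 0.13, and Cyb5r3, the methaemoglobin reductase, -0.08 and 0.16. None of these 4 had an adjusted p below 0.468 in limma. Cd163, named after its values were seen, had the list's lowest values, -0.75 in the LV (limma adjusted p = 0.145) and -0.81 in the RV. It was at 5.23 to 7.45 TPM in LV WT against 2.82 to 4.25 in LV R14del samples. In the RV it was at 6.56 to 7.96 against 2.50 to 4.54 TPM. Of the 13 tested, 8 were lower in the LV and 6 in the RV, against 71.7% and 50.9% of all genes tested.

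Of 19 red cell membrane and surface genes, 11 were tested and 0 were called, with medians of -0.07 in the LV and -0.03 in the RV. Ank1 encodes ankyrin and was at 211 to 418 TPM, with its highest value in RV R14del number 2. Aqp1, a water channel of red cells and of capillary endothelium, had -0.60 ± 0.16 (SE) in the LV (limma adjusted p = 0.189) and -0.51 ± 0.16 in the RV (limma adjusted p = 0.434). Tmod1 and Epb41, which cap and anchor the actin of the membrane skeleton, had -0.11 and -0.07 in the LV and -0.02 and -0.03 in the RV.

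Of 19 enzymes and proteins of reticulocytes and red cells, 17 were listed, 11 were tested and 0 were called. The medians were -0.19 in the LV, where 10 of 11 were lower in R14del samples, and -0.12 in the RV, where 9 of 11 were lower. Of all genes tested, 71.7% were lower in the LV and 50.9% in the RV. Prdx2, a peroxidase abundant in red cells, had -0.13 and -0.28, Cat (catalase) -0.09 and -0.12, Bnip3l, a mitophagy receptor needed for reticulocyte maturation, -0.21 and -0.22, and the E3 ligase gene Mkrn1 -0.30 and -0.34. Prdx2 was at 182 TPM in RV R14del number 2, its lowest value. These genes are also expressed in heart tissue, so their levels do not mark red cells alone.

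Of 9 genes of erythroid regulation, 8 transcription factors or their partners and the erythropoietin receptor gene Epor, 5 were tested and 0 were called, with medians of -0.05 in the LV and 0.21 in the RV. Ldb1, Lmo2, Zfpm1 and Tal1, partners in the erythroid GATA1 complex that also act in endothelium or other cells, had log2 fold changes of -0.10 to 0.03 in the LV and 0.04 to 0.26 in the RV. Epor, the fifth tested and named after its values were seen, had the opposite sign to the globins, 0.45 ± 0.15 (SE) in the LV (limma adjusted p = 0.289) and 0.63 ± 0.15 in the RV (limma adjusted p = 0.128). It was at 0.634 to 0.922 TPM in LV WT against 1.27 to 1.58 in LV R14del, and at 0.380 to 0.693 against 0.972 to 1.86 TPM in the RV. Its ranges were separate, but as for Alas1 the share of all genes separate in that direction was not counted. The median of the 4 adult globins was -0.62 in both ventricles.

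**Figure D5:**
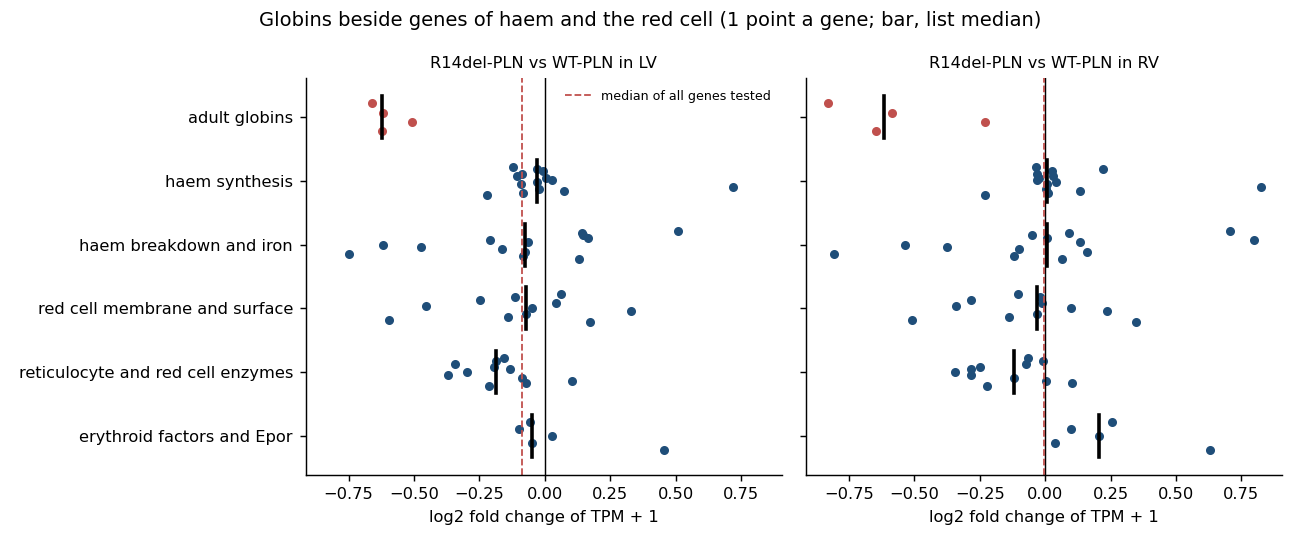
Log2 fold change of TPM + 1 between genotypes (x axis) for each tested gene of the adult globins and of 5 lists of haem and red cell genes (y axis), in the LV and RV. The bar is the list's median, and the dashed line is the median of all genes tested. The globin medians are at -0.62 in both ventricles, and the other medians lie between -0.19 and 0.21.

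Lists of other blood and vessel cells were set beside the globins. Summed neutrophil markers (12 genes, 3 tested, 0 called) were 4.69 to 17.99 TPM in LV WT against 2.46 to 4.23 in LV R14del, and 3.62 to 7.20 in RV WT against 2.95 to 3.10 TPM in RV R14del samples. Platelet markers (12 genes, 5 tested, 0 called) summed to 10.3 to 38.2 TPM in LV WT and 15.7 to 18.1 in LV R14del, and to 10.04 to 19.9 against 9.75 to 21.3 TPM in the RV. B and T lymphocyte markers (12 genes, 2 tested, 0 called) summed to 5.18 to 8.50 against 6.78 to 7.90 TPM in the LV and to 3.89 to 6.26 against 4.95 to 7.40 TPM in the RV. Neutrophil sums were thus lower in R14del samples without overlap, while platelet and lymphocyte sums overlapped. LV WT number 3 alone gave the high end of the LV neutrophil range, the other LV WT sums being 4.69 and 5.42 TPM. The neutrophil genes Elane and Camp were at or near 0, and the neutrophil sums rested on a few genes of low level. In LV WT number 1, Lcn2 alone was 3.85 of the 4.69 TPM. Lcn2 ran from 2.03 to 3.85 TPM in LV WT and from 1.53 to 2.85 in LV R14del samples. For S100a9 the LV ranges were 0.176 to 7.12 and 0 to 0.813 TPM. Taken singly, both genes overlapped between genotypes in each ventricle.

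Macrophage markers (10 genes, 9 tested, 0 called) summed to 161 to 242 TPM in LV WT against 154 to 196 in LV R14del, and to 139 to 164 against 120 to 212 TPM in the RV. Endothelial markers (14 genes, all tested, 0 called) summed to 596 to 626 against 526 to 764 TPM in the LV and to 447 to 493 against 492 to 623 TPM in the RV. Both sums overlapped between genotypes, the endothelial sums of the RV only at the edge. Fabp4 alone gave 325 to 594 TPM of the endothelial sum. The 14 endothelial genes went both ways, 8 being lower in R14del samples in the LV and 6 in the RV. Of all genes tested, 71.7% and 50.9% were lower. Ventricular cardiomyocyte markers (10 genes, 0 called) summed to 43207 to 48316 TPM in LV WT against 39593 to 56817 in LV R14del and to 39233 to 43962 against 37265 to 48866 TPM in the RV. The atrial list (9 genes, 8 tested, 0 called) had a median log2 fold change between genotypes of -1.21 in the LV and 0.04 in the RV. The part of neutrophils, or of any of these cells, in the globin differences was not tested.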

How the data were processed

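RNA sequencing of 12 ventricle samples, 3 in each of 4 groups, was taken as deposited. The authors supplied 1 table of TPM per sample. The study's methods name CLC Genomics Workbench v 20.0.2 and GRCm38 for their analysis. The program and annotation behind the TPM, and any strand setting, are not given in the sources used here. TPM keeps no depth, so no counting error could be computed.

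Groups were taken from the labels. The 12526 of 33641 genes whose mean reached 0.5 TPM were tested on log2(TPM + 1) with limma 3.58.1 (R 4.3.3), with 1 mean per group, an intensity trend and Benjamini-Hochberg adjustment over all genes tested. A log2 fold change on this scale understates that of low genes such as Alas2. Sums and ratios were compared by two-sided exact permutation tests written for the purpose (numpy 2.4.6), adjusted over 28 tests. Spearman's rho of the members came from scipy 1.17.1. The tests were tried on simulated data. All 5 members were named, with at most 4 genes of highest mean TPM in each list and the 10 genes most like total globin. The members and lists were chosen with earlier results of these data known. Coding sequences came from GENCODE vM21.

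Samples of 1 number share that number in the labels, which do not say what it marks. Between ventricles, the deviations of same-numbered WT-PLN samples from their group means correlated at 0.66, 0.32 and 0.46, and this pairing from the data was used in a blocked fit. Alternatives were the pseudocount, filter, scaling, samples left out and the block.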

Additional observations from a re-analysis of the deposited data

How the results depend on the processing

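In every alternative tried, limma called 0 members between genotypes except Hbb-bs in the LV without LV R14del number 3 (-0.86), so the count of members called there was 0 to 1 on leaving out 1 sample. Of the other results, 512 that answer a comparison and 500 of single genes were unchanged. A further 37 that answer a comparison moved, and 13 and 9 of the same kinds reversed. For single genes, unchanged means the same direction and side of the threshold. For sums and ratios only the direction could change, because the exact test of 3 against 3 cannot give p below 0.1. The 512 also include counts of genes called, which have no direction and were held unchanged when they stayed near the main count. The causes of the changes were not tested.

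Genes called between genotypes in the LV (65, 12 higher) were 22 with no filter, 104 (39 higher) by quantile normalization, 99 (35 higher) by upper quartile scaling, 231 without both WT-PLN samples of number 1 and 19 to 153 on leaving out 1 sample. In the RV (34, 9 higher) they were 17, 85 (29 higher), 88 (32 higher), 88 and 14 to 48, and 73 (31 higher) without mitochondrially encoded genes. Between ventricles of WT-PLN mice (0) they were 1 with no filter, 1 with the 6 samples alone, 2 without number 1, 2 without mitochondrially encoded genes and 0 to 4 on leaving out 1 sample. They were 0 to 1 between ventricles of R14del-PLN mice, and for the interaction 2 with no filter and 0 to 1 on leaving out 1 sample.

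With number as a replicate block, 119 genes were called in the LV and 62 in the RV, and with genotype and number as the block 12 between ventricles of WT-PLN mice. With genotype and number as a random block the counts were 68, 35 and 0. The block changed no call of a member. Between ventricles of R14del-PLN mice, and between genotypes, not every same-numbered pair correlated above 0.1, and not every R14del-PLN sample correlated best with its own number.

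Between ventricles of R14del-PLN mice, the alpha sum was 0.0502 per Mb TPM, an alternative chosen after the data were seen, and -0.43 to 0.0523 on leaving out 1 sample. The alpha to beta ratio there was -0.0029 to 0.32, and in WT-PLN mice -0.0051 to 0.044, or -0.0025 without both samples of number 1. The Hba-a2 share on leaving out 1 sample was -0.31 to 3.14 in the LV, -0.20 to 8.57 in the RV and -3.24 to 5.52 between R14del-PLN ventricles. Alas2 per globin was -0.27 to 0.46 between genotypes in the RV (0.0099 as log2) and -0.16 to 0.58 between WT-PLN ventricles. Hba-a2 was -0.55 to 0.0405 between genotypes in the RV. Between R14del-PLN ventricles, Hba-a2 was 0.0467 by quantile normalization and -0.50 to 0.14 on leaving out 1 sample. Alas2 was 0.0512 by quantile normalization, 0.0634 by upper quartile scaling, 0.13 without mitochondrially encoded genes and -0.23 to 0.22 on leaving out 1 sample. Of the 10 genes most like total globin, 5 were shared without number 1, 0 with group means kept and 6 by Spearman's rho.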
